A study of Mus musculus with 8 samples.

Results

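Eosinophils and basophils are granulocytes that carry CD11b, and their transcripts can be followed in RNA of CD11b+ cells that were sorted for other reasons. The 9 genes described here are Prg2, Epx, Ear1, Ear2 and Ear6, which encode proteins of eosinophil granules or their close relatives, Siglecf, Ccr3 and Il5ra, which encode surface receptors of eosinophils, and Mcpt8, which encodes a protease of basophil granules. They were chosen by name, as the rows of the deposited count table whose symbol is 1 of these 9, out of 54188 genes in the table. The RNA came from CD11b+Gr-1hi and CD11b+Gr-1lo cells of sanroque mice aged about 20 weeks, which are homozygous for the san allele of Roquin on a C57BL/6 background and develop a lupus-like disease. The labels call the Gr-1hi cells G-MDSC and the Gr-1lo cells M-MDSC, the granulocytic and monocytic kinds of myeloid-derived suppressor cells. Each subset was sorted from the spleen (SP) and from the bone marrow (BM), which gives 4 groups of 2 libraries. By the numbers in their labels, SP Gr-1hi comprises libraries 5 and 6, SP Gr-1lo libraries 7 and 8, BM Gr-1hi libraries 9 and 10, and BM Gr-1lo libraries 11 and 12. All 4 groups carry the same genotype and no wild-type library is among them, so the comparisons are between tissues and between subsets of sanroque mice. The cells were selected only by antibodies to CD11b and Gr-1, without a stain for eosinophils or basophils, and the labels do not tie libraries to mice.

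Eosinophils develop in the marrow under IL-5, which binds a receptor made of IL-5Rα, the product of Il5ra, and a common beta chain that IL-3 and GM-CSF also use. Their granules are filled early in development with major basic protein, eosinophil peroxidase and small ribonucleases, so that transcripts of the granule proteins are most abundant in eosinophil precursors, whereas the eotaxin receptor CCR3 and the sialic acid-binding receptor Siglec-F mark the mature cell. Basophils arise from a nearby branch of the granulocyte lineage, depend on IL-3 and GATA2, and in mice store the proteases encoded by Mcpt8 and Prss34. None of the receptors is restricted to eosinophils, since subsets of B cells can carry IL-5Rα, basophils can carry CCR3, and neutrophils and macrophages can carry Siglec-F.

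The libraries held 33453580 to 68316154 counts on genes, and values are given as CPM, which are counts per 1e6 counts of the library size scaled by edgeR's TMM method. A single count was worth 0.0116 to 0.0413 CPM. Genes that neutrophils express were higher in Gr-1hi than in Gr-1lo libraries of both tissues for 8 of 8 genes of a fixed list. Of 6 classical monocyte genes, 5 were lower. Of all genes tested, 24.2% were higher and 33.1% lower in marrow, and 22.3% and 27.4% in spleen. The mice are labelled female, but Ddx3y, a gene of the Y chromosome, had counts in 7 of the 8 libraries, and Xist, the transcript of the inactive X chromosome, had over 5 counts only in libraries 5 and 7. Library 5 had 12032 counts of Xist and 0 of Ddx3y, and library 7 had 9898 of Xist and 1595 of Ddx3y. Both are spleen libraries, so the comparisons between tissues also set libraries with unlike levels of these transcripts against each other. Calls of members that change when libraries 5 and 7 are left out are given both ways. Genes of the other lists were not recomputed without these libraries. The spread between libraries of 1 group exceeded counting noise (chi-square divided by its degrees of freedom, 20.7 to 74.3). The methods of the study describe the libraries of a group as independent biological replicates without saying whether each came from a single mouse or from a pool, and p values measure the spread between them.

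The members lie on 6 chromosomes of GRCm38. Prg2 is on chromosome 2 (chr2:84980461-84983632), 4.58 kb from its relative Prg3. Epx is on chromosome 11 (chr11:87864000-87875536), Siglecf on chromosome 7 (chr7:43351341-43359531), Ccr3 on chromosome 9 (chr9:124021972-124031689) and Il5ra on chromosome 6 (chr6:106710357-106749037). The 3 Ear genes, which encode eosinophil-associated ribonucleases, are on chromosome 14 at chr14:43818765-43875517 for Ear1, chr14:44102654-44103534 for Ear2 and chr14:51853699-51854643 for Ear6. Mcpt8 is on the same chromosome at chr14:56082166-56085273. All 9 are annotated as protein coding, and counts were made over their exons.

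The Ear genes are near copies of each other, and the sequences before the starts of Ear1 and Ear2 are shown because these 2 genes differed in level and in pattern across the libraries. The RefSeq sequences for GRCm38.p6 held an entry for 8 of the 9 members, with none for Prg2. The 250 bases before the RefSeq start were taken for Ear1 (chr14:43819640-43819889, minus strand) and Ear2 (chr14:44102404-44102653, plus strand). They differ at 2 of 248 aligned bases, which is 99.2% identity, and the capitals mark the differing bases.
Ear1: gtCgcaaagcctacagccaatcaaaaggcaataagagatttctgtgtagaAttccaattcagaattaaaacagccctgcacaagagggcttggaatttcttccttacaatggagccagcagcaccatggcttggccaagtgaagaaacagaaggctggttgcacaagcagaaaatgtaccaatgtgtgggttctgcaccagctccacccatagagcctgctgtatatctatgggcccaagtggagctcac
Ear2: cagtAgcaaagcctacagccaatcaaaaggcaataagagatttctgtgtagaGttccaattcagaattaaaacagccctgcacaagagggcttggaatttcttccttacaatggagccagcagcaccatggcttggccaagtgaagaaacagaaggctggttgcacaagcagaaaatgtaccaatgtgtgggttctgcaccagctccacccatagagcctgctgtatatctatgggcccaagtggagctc
Neither stretch overlaps an annotated exon of its gene. The Ear1 stretch lies inside the span given above for that gene, which begins further upstream on the minus strand. It therefore precedes the RefSeq start of Ear1 and not the start of the longer annotated gene. The transcripts of Ear1 and Ear2 were 96.8% identical, and those of Ear6 were 89% identical to Ear1 and 89.4% to Ear2. A read of 101 bases, the length sequenced, falls on letters that also occur in another gene for 23.5% of positions in the Ear1 transcript and 13.7% in the Ear2 transcript, the other genes being Ear10 and the pseudogenes Ear-ps9 and Ear-ps2. Ear1 also shares exon bases with Ear-ps9 on the same strand. Counts of Ear1 and Ear2 are therefore uncertain in how reads were divided among these copies, while 0% of positions in the other 7 members were shared at this length.

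The receptor genes Ccr3 and Il5ra followed each other across the libraries, and the 150 bases before their starts are shown for that reason. The capitals mark matches to letters that GATA factors can bind, which were AGATAA and also AGATAG, and with the other first letter TGATAA and also TGATAG, searched on both strands of the 250 bases before each start. The stretches are chr9:124021821-124021970 on the plus strand for Ccr3 and chr6:106749038-106749187 on the minus strand for Il5ra.
Ccr3: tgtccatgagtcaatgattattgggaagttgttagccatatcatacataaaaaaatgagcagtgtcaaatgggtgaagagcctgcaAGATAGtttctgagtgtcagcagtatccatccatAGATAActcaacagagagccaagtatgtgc
Il5ra: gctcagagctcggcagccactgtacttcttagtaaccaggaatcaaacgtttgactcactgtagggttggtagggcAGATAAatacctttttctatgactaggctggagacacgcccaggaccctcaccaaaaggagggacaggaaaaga
Ccr3 held 2 matches, which began 64 and 30 bases before the start, and Il5ra held 1, which began 74 bases before it. The same search found a match in 26.5% of 32851 promoters of this length, and none in the other 6 members that have an entry. A C/EBP motif, TTGCNNAA, was found in 9.56% of promoters and in Ear1 and Ear2 among the members, 92 and 90 bases before the start. A PU.1 motif, GAGGAAGT, was found in 2.44% of promoters and in none of the members. A match describes the letters only.

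Of the 9 members, 8 fell into 3 patterns. Prg2, Epx, Ear1 and Ear6 were highest in 1 BM Gr-1hi library and next highest in SP Gr-1lo, Siglecf, Ccr3 and Il5ra were highest in SP Gr-1hi, and Mcpt8 was highest in BM Gr-1hi. The other member, Ear2, was highest in both BM Gr-1hi libraries and varied less than the rest of the granule genes. All 9 passed the filter on low counts, and each reached the filter's level of 0.264 CPM in both libraries of at least 2 groups. A gene was called where it differed by at least 2-fold with an adjusted p up to 0.05, by edgeR's quasi-likelihood test over 17650 genes with Benjamini-Hochberg adjustment. The 4 comparisons share libraries with each other, so their values are given side by side. Between Gr-1hi and Gr-1lo cells of the marrow, 7 members were higher and 0 lower, against 24.2% of all genes tested called higher and 33.1% called lower. In the spleen, 4 members were higher in Gr-1hi than in Gr-1lo cells and 0 were lower, against 22.3% and 27.4% of all genes. Between SP Gr-1hi and BM Gr-1hi, 2 members were higher and 2 lower in spleen, against 14.0% and 1.48% of all genes. Between SP Gr-1lo and BM Gr-1lo, 0 members were higher and 1 was lower in spleen, against 3.84% and 0.215% of all genes. At an unadjusted p of at most 0.05, 5 of the 9 and 3545 of all 17650 genes passed in that last comparison by the same test. DESeq2 called 2 members higher and 1 lower there, against 729 and 58 of 17405 genes, which is 4.52% in both directions. The numbers of genes called lower in spleen were small and moved with single libraries. Between the Gr-1hi groups 262 genes were lower, 137 without library 5 and 892 of 18565 without library 6. Between the Gr-1lo groups 38 were lower, and 6 to 51 without each library in turn, the fewest without library 8.

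**Figure D1:**
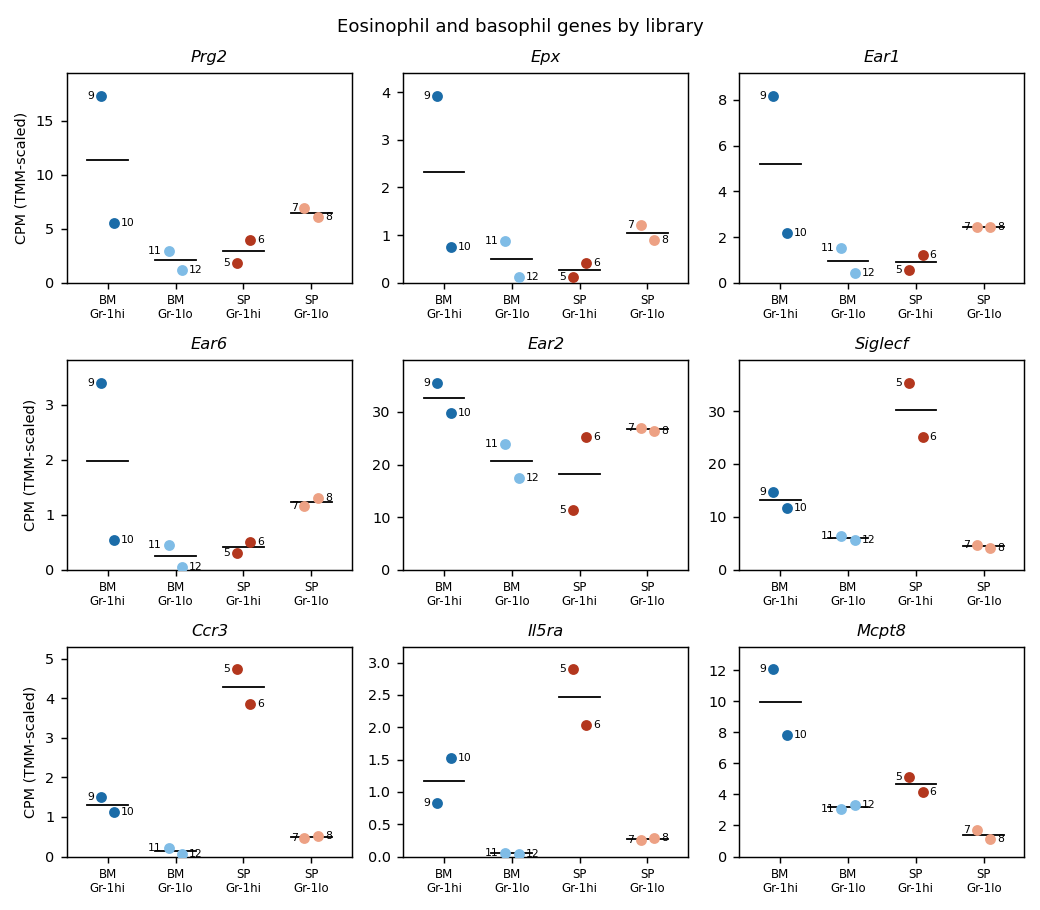
Expression of the 9 genes in each library, in TMM-scaled CPM on linear axes that start at 0. Points are libraries, labelled with their number, and bars are means of the 2 libraries of a group. Library 9 stands above library 10 for Prg2, Epx, Ear1 and Ear6, while Siglecf, Ccr3 and Il5ra are highest in libraries 5 and 6.

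Prg2 encodes the major basic protein that forms the crystalline core of eosinophil granules. Its level was 17.3 and 5.49 CPM in the BM Gr-1hi libraries 9 and 10, 2.97 and 1.19 CPM in the BM Gr-1lo libraries, 6.90 and 6.07 CPM in the SP Gr-1lo libraries, and 1.84 and 3.99 CPM in the SP Gr-1hi libraries. Both marrow groups spread widely, and library 10 lay below both SP Gr-1lo libraries. Within the marrow, Prg2 was higher in Gr-1hi than in Gr-1lo cells by a log2 FC of 2.46 (SE 0.67, edgeR adjusted p = 0.0127). Between the spleen subsets the log2 FC was -1.16 (SE 0.65, edgeR adjusted p = 0.153), which was not called. The interaction, which is the difference between Gr-1hi and Gr-1lo in spleen minus that in marrow, was -3.62 for Prg2 (SE 0.93, edgeR adjusted p = 0.0443). Leaving out library 5, 6, 7, 8, 9, 11 or 12 ended this call, with values of -4.42 to -2.65 and edgeR adjusted p of 0.0578 to 0.161. With no filter on low counts it was -3.66 and not called either (edgeR adjusted p = 0.213).

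Ear1 encodes a ribonuclease of the eosinophil granule. It had 8.19 and 2.19 CPM in libraries 9 and 10, 1.52 and 0.416 CPM in libraries 11 and 12, 2.43 and 2.42 CPM in libraries 7 and 8, and 0.573 and 1.21 CPM in libraries 5 and 6. The SP Gr-1lo libraries were level with each other and lay between the BM Gr-1hi libraries. Ear1 was higher in BM Gr-1hi than in BM Gr-1lo by a log2 FC of 2.44 (SE 0.73, edgeR adjusted p = 0.0166) and lower in SP Gr-1hi than in BM Gr-1hi by -2.55 (SE 0.77, edgeR adjusted p = 0.0375). Its interaction was -3.88 (SE 1.05, edgeR adjusted p = 0.0448), and this call was lost without library 5, 6, 7, 8, 9 or 12, with values of -4.62 to -2.72 and edgeR adjusted p of 0.0818 to 0.172, and with no filter on low counts (-3.93, edgeR adjusted p = 0.144). Against all genes tested, 7.74% were called with a positive interaction and 2.00% with a negative one, and among the members 1 was positive and 2, Prg2 and Ear1, were negative.

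Epx encodes eosinophil peroxidase, the enzyme that makes hypobromous acid. It was low everywhere, with 3.93 and 0.743 CPM in BM Gr-1hi, 0.881 and 0.113 CPM in BM Gr-1lo, 1.20 and 0.904 CPM in SP Gr-1lo and 0.121 and 0.415 CPM in SP Gr-1hi. The lowest of these values rest on 4 counts in library 5 and 6 counts in library 12. Epx was called in none of the 4 comparisons, with log2 FCs of 2.25 between the marrow subsets (SE 0.96, edgeR adjusted p = 0.0632) and -3.14 between SP Gr-1hi and BM Gr-1hi (SE 1.09, edgeR adjusted p = 0.0607).

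Ear6 encodes another ribonuclease of the family. Its levels were 3.40 and 0.537 CPM in BM Gr-1hi, 0.451 and 0.0567 CPM in BM Gr-1lo, 1.16 and 1.30 CPM in SP Gr-1lo and 0.301 and 0.510 CPM in SP Gr-1hi. Library 12 held 3 counts of it. Between the marrow subsets Ear6 was higher in Gr-1hi by a log2 FC of 2.98 (SE 0.95, edgeR adjusted p = 0.0201). Its interaction of -4.58 (SE 1.32, edgeR adjusted p = 0.0518) was not called.

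The 4 granule genes moved together between libraries of 1 group. Library 9 exceeded library 10 by 3.15 times for Prg2, 5.28 times for Epx, 3.74 times for Ear1 and 6.34 times for Ear6. Library 11 exceeded library 12 by 2.5, 7.77, 3.65 and 7.95 times for the same genes in the same order. In SP Gr-1lo the libraries were closer, differing by at most 1.14 times for Prg2, Ear1 and Ear6, with Epx at 1.20 and 0.904 CPM. In SP Gr-1hi library 6 exceeded library 5 by 1.69 to 3.44 times. For each of the 4 genes the libraries of the first and second highest groups, BM Gr-1hi and SP Gr-1lo, overlapped, as did those of the 2 lowest groups, SP Gr-1hi and BM Gr-1lo, and only the step between these pairs was free of overlap with the next group. Fewer eosinophil-lineage cells in a sorted sample and less of the RNA per cell cannot be told apart in bulk counts such as these.

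The marrow calls of the granule genes depended on the libraries kept and on the fit. Without library 9 the log2 FC between BM Gr-1hi and BM Gr-1lo was 1.46 for Prg2, 1.24 for Ear1 and 1.15 for Ear6, and none of the 3 was called (edgeR adjusted p = 0.0548, 0.158 and 0.325). Without library 12 they were 1.92, 1.76 and 2.11 (edgeR adjusted p = 0.0678, 0.0786 and 0.0891). Without libraries 5 and 7 they were 2.42, 2.40 and 2.94 (edgeR adjusted p = 0.0870, 0.106 and 0.106). With all 8 libraries but no filter on low counts, Prg2 had 2.37 and Ear1 had 2.35 and neither was called (edgeR adjusted p = 0.113 and 0.0898), whereas Ear6 was. In a fit of the 4 marrow libraries alone, Ear1 had 2.51 and Ear6 had 3.04 and neither was called (edgeR adjusted p = 0.0666 and 0.0705), whereas Prg2 was. Epx was called between the same groups without library 10 (log2 FC 3.07) and without library 11 (4.31), and also with DESeq2 or quantile normalization.

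The lower level in SP Gr-1hi than in BM Gr-1hi was as dependent on the libraries kept. For Ear1 the log2 FC was -2.19 when library 5 was left out, -3.26 when library 6 was, -2.55 when library 7 or library 8 was and -1.37 when library 9 was, with edgeR adjusted p between 0.0749 and 0.226, and none of these was called. Without libraries 5 and 7 together it was -2.09 (edgeR adjusted p = 0.395). The call was also lost with no filter on low counts (-2.54, edgeR adjusted p = 0.145) and in a fit of the 4 Gr-1hi libraries (-2.53, edgeR adjusted p = 0.05001, just over the threshold). Prg2 had a log2 FC of -1.98 (SE 0.67, edgeR adjusted p = 0.0603) in all 8 libraries. It was called without library 10, at -2.68, and also with RLE scaling, DESeq2 or quantile normalization. Epx was called without libraries 10, 11 or 12, at -3.98, -3.13 and -3.13, and also with DESeq2 or quantile normalization. Ear6 had -2.29 (edgeR adjusted p = 0.0960). It was called without library 10, at -3.17, and also with no filter on low counts or with DESeq2. Between SP Gr-1lo and BM Gr-1lo the 4 genes had log2 FCs of 1.08 to 2.29 and none was called. With no filter on low counts Ear6 was called higher in spleen there.

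Ear2 was the most abundant member of the granule group and the least variable. Its level was 35.6 and 29.7 CPM in BM Gr-1hi, 27.0 and 26.4 CPM in SP Gr-1lo, 23.8 and 17.4 CPM in BM Gr-1lo and 11.3 and 25.2 CPM in SP Gr-1hi. Only the SP Gr-1hi libraries differed by over 1.5 times from each other, by 2.24 times, and these overlapped with BM Gr-1lo. Ear2 was called in none of the comparisons, with log2 FCs of 0.66 between the marrow subsets (edgeR adjusted p = 0.108), -0.55 between the spleen subsets (0.177), -0.84 between SP Gr-1hi and BM Gr-1hi (0.0965) and 0.37 between SP Gr-1lo and BM Gr-1lo (0.587). Without library 6 it was called lower in SP Gr-1hi than in BM Gr-1hi, at -1.61 (edgeR adjusted p = 0.000999), and lower than in SP Gr-1lo, at -1.27 (edgeR adjusted p = 0.00104).

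Ear2 did not keep a constant ratio to the other granule genes. Per 100 counts of Prg2 there were 206 counts of Ear2 in library 9, 541 in library 10, 802 in library 11 and 1465 in library 12. The corresponding values for Ear1 were 47.3, 39.8, 51.0 and 34.9, and over all 8 libraries Ear1 stayed within 30.4 and 51.0 per 100 counts of Prg2. Epx varied between 6.56 and 29.7 and Ear6 between 4.76 and 21.4 per 100 counts of Prg2, on far fewer counts. Ear1 and Ear2 differed in how they followed Prg2, with counts that are uncertain in how reads were divided among the copies. The 250 bases before their RefSeq starts differ at 2 positions, and a link between these letters and the levels was not tested. The longer annotated start of Ear1 was not compared.

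Summing the 5 rows named Ear with a number takes in reads divided among these 5, though not those shared with Ear-ps9 or Ear-ps2. The sum was 47.8 and 33.3 CPM in BM Gr-1hi, 26.5 and 18.5 CPM in BM Gr-1lo, 31.5 and 30.9 CPM in SP Gr-1lo and 12.4 and 27.7 CPM in SP Gr-1hi. Ear2 made up 74.5% to 94.5% of these counts. The sum was called in none of the comparisons, the largest difference being -1.02 between SP Gr-1hi and BM Gr-1hi (SE 0.38, edgeR adjusted p = 0.0817). Ear10, the nearest copy in the same cluster, had 0.241 to 0.929 CPM and was not called, and Ear14 had 0 counts in all 8 libraries.

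Other eosinophil granule genes did not all share the pattern of the members. Of the 5 on a list of such genes, 4 were tested. Between the marrow subsets 1 was higher and 2 lower in Gr-1hi, against 24.2% and 33.1% of all genes. The 1 that was higher was Prg3, which encodes a homologue of major basic protein, at a log2 FC of 1.65 (SE 0.57, edgeR adjusted p = 0.0261). The 2 that were lower were Rnase2a and Rnase2b, which encode further ribonucleases of the family, at -4.87 and -4.36 (edgeR adjusted p = 0.000476 and 9.69e-05). Rnase2b had 3.50 and 5.54 CPM in BM Gr-1lo, 2.07 and 3.13 CPM in SP Gr-1lo and at most 0.330 CPM in the Gr-1hi libraries, an order opposite to that of Prg2 in the marrow. Both were also called lower in SP Gr-1hi than in SP Gr-1lo, Rnase2b at -6.27 (edgeR adjusted p = 7.96e-05) and Rnase2a with 0 counts in both SP Gr-1hi libraries. Primary granule genes of early neutrophil and monocyte precursors were lower in Gr-1hi for 4 of 4 genes in both tissues. This was so for 33.1% of all genes in marrow and 27.4% in spleen. The summed level of these 4 genes was 3120 and 3061 CPM in BM Gr-1lo, 2059 and 1147 CPM in SP Gr-1lo and 12.0 to 39.9 CPM in the Gr-1hi libraries.

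**Figure D2:**
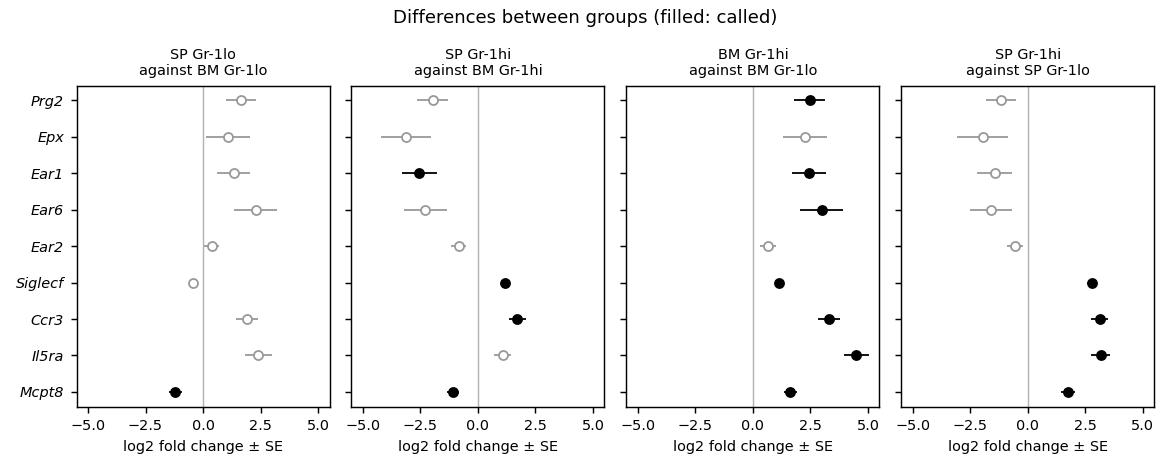
Log2 FC of each gene in 4 comparisons, with bars of 1 SE on each side. Filled points passed the threshold and open points did not. Siglecf, Ccr3, Il5ra and Mcpt8 lie to the right of 0 in both comparisons of Gr-1hi with Gr-1lo, whereas the granule genes lie to the right in marrow and to the left, uncalled, in spleen.

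Siglecf encodes Siglec-F, an inhibitory receptor that is used with CCR3 to recognise mouse eosinophils. Its level was 35.4 and 25.2 CPM in SP Gr-1hi, 14.8 and 11.7 CPM in BM Gr-1hi, 6.39 and 5.55 CPM in BM Gr-1lo and 4.71 and 4.18 CPM in SP Gr-1lo. No 2 neighbouring groups in this order overlapped. Siglecf was higher in Gr-1hi than in Gr-1lo cells by a log2 FC of 2.77 in spleen (SE 0.20, edgeR adjusted p = 5.06e-06) and 1.15 in marrow (SE 0.20, edgeR adjusted p = 0.000676). The interaction was 1.62 (SE 0.28, edgeR adjusted p = 0.00845), and it was called in all 15 alternatives run.

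Between SP Gr-1hi and BM Gr-1hi, Siglecf was higher in spleen by a log2 FC of 1.19 (SE 0.19, edgeR adjusted p = 0.00269). Without library 5 the difference was 0.85 and without library 10 it was 0.94, both under 2-fold and so not called, with edgeR adjusted p of 0.0138 and 0.0269. It was also 0.94 without libraries 5 and 7. The call was lost with quantile normalization as well. Between SP Gr-1lo and BM Gr-1lo Siglecf had -0.43 (SE 0.20, edgeR adjusted p = 0.273) and was not called.

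Ccr3 encodes the receptor for the eotaxins, the chemokines that draw eosinophils into tissue. Its level was 4.73 and 3.86 CPM in SP Gr-1hi, 1.5 and 1.11 CPM in BM Gr-1hi, 0.464 and 0.510 CPM in SP Gr-1lo and 0.205 and 0.0567 CPM in BM Gr-1lo. The groups did not overlap in this order either, although the last value rests on 3 counts. In the comparison of Gr-1hi with Gr-1lo cells its log2 FC was 3.13 in spleen (SE 0.38, edgeR adjusted p = 8.89e-05) and 3.32 in marrow (SE 0.48, edgeR adjusted p = 0.000235). Between SP Gr-1hi and BM Gr-1hi it was 1.71 (SE 0.37, edgeR adjusted p = 0.00869), and this call was lost without library 10 (1.42, edgeR adjusted p = 0.0635) and without libraries 5 and 7 (1.57, edgeR adjusted p = 0.0579). Between SP Gr-1lo and BM Gr-1lo it was 1.91 (SE 0.49, edgeR adjusted p = 0.0667), which was not called. Without library 11 it was 3.05 and was called, as it also was with no filter on low counts or with DESeq2.

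Il5ra encodes the chain of the IL-5 receptor that binds the cytokine. Its level was 2.89 and 2.04 CPM in SP Gr-1hi, 0.822 and 1.53 CPM in BM Gr-1hi, 0.253 and 0.290 CPM in SP Gr-1lo and 0.0615 and 0.0378 CPM in BM Gr-1lo, with no overlap between neighbours in this order. The BM Gr-1lo libraries held 3 and 2 counts. The ratio of scaled counts between BM Gr-1hi (59 counts) and BM Gr-1lo (5 counts) was 23.6, with an exact 95% interval of 9.54 to 75.2 that covers counting error only. Il5ra was higher in Gr-1hi than in Gr-1lo cells by a log2 FC of 3.16 in spleen (SE 0.40, edgeR adjusted p = 0.000116) and 4.49 in marrow (SE 0.55, edgeR adjusted p = 7.56e-05). The tissue comparisons were not called, with 1.08 in Gr-1hi cells (SE 0.37, edgeR adjusted p = 0.0532) and 2.41 in Gr-1lo cells (SE 0.60, edgeR adjusted p = 0.0572). Both were close to the threshold. The first was called without library 6 (1.23) or library 10 (1.48), and also with upper-quartile scaling or no filter. The second was called without library 5, 6, 9 or 10 (2.43 in each). It was also called with no filter, in the 4 libraries compared or with DESeq2.

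Under the stricter threshold that the study used between subsets, an adjusted p below 0.01 and a difference over 8-fold, 2 members, Ccr3 and Il5ra, were higher in Gr-1hi cells in each tissue, against 6.56% of all genes in marrow and 4.44% in spleen. The calls of Siglecf, Ccr3 and Il5ra between the subsets were kept in all 16 alternatives in each tissue at the general threshold. Per 100 counts of Ccr3 there were 52.9 to 61.1 counts of Il5ra in libraries 5 to 9, and 137 in library 10, where Ccr3 and Il5ra differed in their order from library 9. In libraries 11 and 12 there were 30 and 66.7, on 10 and 3 counts of Ccr3.

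Genes of receptors that work beside IL-5Rα moved in both directions. Of 6 such genes, all tested, 4 were higher and 1 lower in BM Gr-1hi than in BM Gr-1lo, against 24.2% and 33.1% of all genes. Between the spleen subsets 2 were higher and 1 lower, against 22.3% and 27.4% of all genes. The common beta chain Csf2rb had 448 to 1249 CPM and was higher in BM Gr-1hi by a log2 FC of 1.18 (SE 0.13, edgeR adjusted p = 3.4e-05). Csf2ra, the alpha chain for GM-CSF, was higher there by 1.29 (SE 0.12, edgeR adjusted p = 1.16e-05). Crlf2, a chain of the receptor for thymic stromal lymphopoietin (TSLP), was higher in Gr-1hi by 1.55 in marrow and 1.47 in spleen (edgeR adjusted p = 2.34e-06 and 5.32e-06). Il1rl1, which encodes the IL-33 receptor ST2, was higher in Gr-1hi than in Gr-1lo by 4.92 in marrow and 2.75 in spleen (edgeR adjusted p = 1.75e-06 and 2.46e-05). Il3ra, the alpha chain for IL-3, was lower in Gr-1hi, with log2 FCs of -1.31 in marrow and -1.66 in spleen (edgeR adjusted p = 6.26e-06 and 3.35e-06). The ligands were sparse, and 3 of 9 were tested. Il5 had at most 1 count in a library, Il3 and Ccl11 had 0 in all 8, and Il33 had at most 1. Tslp, which encodes TSLP, was lower in Gr-1hi by -2.30 in marrow and -3.10 in spleen (edgeR adjusted p = 0.0358 and 0.0117). It had 1 or 2 counts in each Gr-1hi library, and 30 and 10 in the BM Gr-1lo libraries. Ccl24, which encodes an eotaxin, had 0 counts in both BM Gr-1hi libraries, where it was called lower than in BM Gr-1lo at 0.348 and 0.264 CPM. In SP Gr-1hi, with 3 and 5 counts, Ccl24 was called higher than in BM Gr-1hi, by 5.48 (SE 1.61, edgeR adjusted p = 0.0351). Ccl5, a chemokine that also binds CCR3, was higher in spleen than in marrow by 3.21 in Gr-1hi cells and 4.32 in Gr-1lo cells (edgeR adjusted p = 0.000942 and 0.000957), and higher in BM Gr-1hi than in BM Gr-1lo by 1.67 (edgeR adjusted p = 0.0141).

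The receptor genes were highest in the group that also had the highest summed levels of B cell, T cell and splenic macrophage genes. The summed level of 10 B cell genes was 617 and 419 CPM in SP Gr-1hi, 76.7 and 97.8 CPM in SP Gr-1lo, 21.1 and 17.4 CPM in BM Gr-1hi and 8.56 and 10.7 CPM in BM Gr-1lo. All 10 were higher in SP Gr-1hi than in BM Gr-1hi and than in SP Gr-1lo, against 14.0% and 22.3% of all genes. None of the 10 was at 0 in every library. T cell genes summed to 74.5 and 47.0 CPM in SP Gr-1hi and to at most 23.9 CPM elsewhere. Library 5 exceeded library 6 for the B cell sum as it did for Siglecf, Ccr3 and Il5ra. Between BM Gr-1hi and SP Gr-1lo, the receptor genes lay higher in the former and the B cell sum in the latter. The summed level of 7 splenic macrophage genes was 103 and 102 CPM in SP Gr-1hi, 90.6 and 94.7 CPM in SP Gr-1lo, 45.4 and 36.2 CPM in BM Gr-1hi and 72.4 and 57.8 CPM in BM Gr-1lo, and none of the 7 was at 0 in every library. Of these genes 5 were higher in SP Gr-1hi than in BM Gr-1hi, namely Cd5l, Spic, Marco, C1qa and C1qb, while Siglec1 and Vcam1 were not called. Between SP Gr-1hi and SP Gr-1lo 3 were higher and 1, Siglec1, was lower in SP Gr-1hi. Siglec1 had 3.83 and 3.38 CPM in SP Gr-1hi and 30.4 and 33.1 CPM in SP Gr-1lo, a log2 FC of -3.14 (SE 0.16, edgeR adjusted p = 1.25e-06). Cd5l, a secreted protein of tissue macrophages, had 14.8 and 15.9 CPM in SP Gr-1hi and 1.83 and 1.73 CPM in BM Gr-1hi. Between the same groups 2 of 3 NK cell genes, 3 of 3 plasma cell genes and 3 of 4 erythroid genes were also higher in spleen. The part of RNA from these cells in the receptor genes was not tested.

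**Figure D3:**
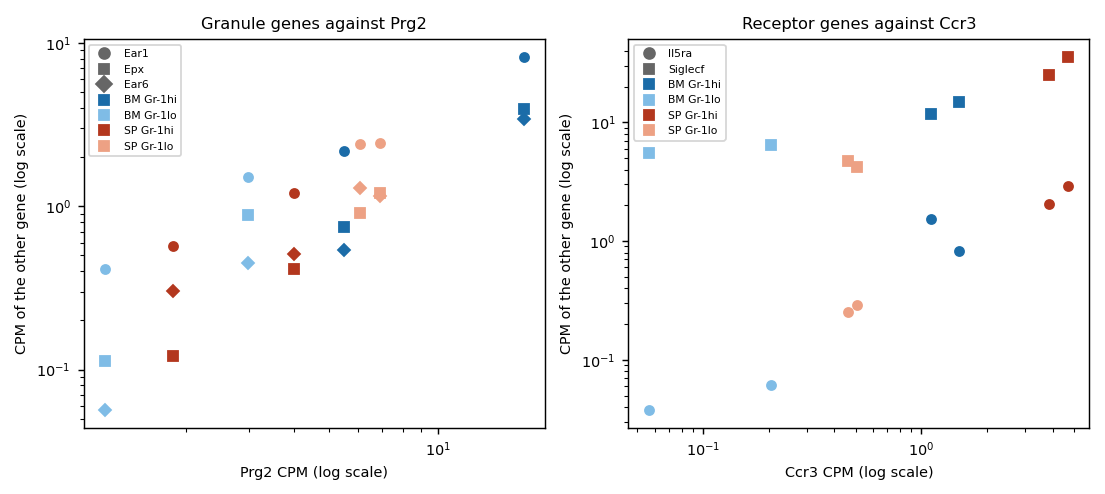
Expression of Ear1, Epx and Ear6 against Prg2 on the left, and of Il5ra and Siglecf against Ccr3 on the right, in TMM-scaled CPM on log axes. Each symbol is 1 library and colours are groups. The granule genes rise with Prg2 across groups, and Il5ra rises with Ccr3. Ccr3, Il5ra and Siglecf are each higher in the Gr-1hi than in the Gr-1lo libraries.

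Over the 8 libraries the log2 CPM of Prg2 had a Pearson r of 0.98 with Ear1, 0.96 with Ear6 and 0.94 with Epx (Spearman rho 0.98, 0.98 and 0.93). Ccr3 and Il5ra had an r of 0.97 and a rho of 0.98. Between granule and receptor genes the values were far lower, with an r of -0.06 between Prg2 and Siglecf and 0.27 between Prg2 and Ccr3. These values describe 8 libraries in 4 groups that share depth and sorting, and 36 pairs of members were computed.

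Each member was also set against 13414 or 13415 other tested genes with a mean of at least 1 CPM, by Pearson r over the 8 libraries. For Ear1 the closest were Prg2 and Epx (r = 0.98 each) and then Gm21811 (0.92). For Prg2 they were Ear1, Herc2 (0.95) and Epx, for Epx they were Ear1, Prg2 and Gm21092 (0.93), and for Ear6 they were Prg2, Ear1 and Herc2 (0.92). Prg2, Epx and Ear1 were thus among each other's closest 3, while Ear6 and Il5ra, whose mean levels were under 1 CPM, were not candidates for the others. The closest genes of Ear2 were Gm43088 (0.99), Ticam1 (0.97) and 2610005L07Rik (0.97), none of them a member. Siglecf was closest to A930015D03Rik, Nsmf and Tbc1d15 (0.99 each), Ccr3 to Oplah, Gm15832 and D430042O09Rik (0.99 each), Il5ra to Oas1a (0.995), Fcgr4 and Ggps1 (0.99 each), and Mcpt8 to Tonsl, Gm43672 and Mrpl10 (0.98 each). The receptor genes and Mcpt8 had no other member among their 3.

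Mcpt8 encodes a serine protease stored in basophil granules and is used as a basophil marker in mice. Its level was 12.0 and 7.80 CPM in BM Gr-1hi, 5.12 and 4.18 CPM in SP Gr-1hi, 3.07 and 3.34 CPM in BM Gr-1lo and 1.71 and 1.11 CPM in SP Gr-1lo, and no neighbouring groups overlapped. Mcpt8 was higher in Gr-1hi than in Gr-1lo cells by a log2 FC of 1.63 in marrow (SE 0.27, edgeR adjusted p = 0.000549) and 1.75 in spleen (SE 0.29, edgeR adjusted p = 0.000597), and both calls were kept in all 16 alternatives. The interaction was 0.12 (SE 0.39, edgeR adjusted p = 0.865).

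Mcpt8 was lower in spleen than in marrow in both subsets. The log2 FC was -1.09 in Gr-1hi cells (SE 0.27, edgeR adjusted p = 0.0155) and -1.21 in Gr-1lo cells (SE 0.28, edgeR adjusted p = 0.0461). Without library 9 the first was -0.82 (edgeR adjusted p = 0.0812). The second was lost without any of the 4 libraries compared, its values being -1.52, -0.90, -1.27 and -1.14 when library 7, 8, 11 or 12 was left out, in that order, with edgeR adjusted p of 0.0531 to 0.341. Without libraries 5 and 7 both were called.

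Other basophil genes moved with Mcpt8 between the subsets. Of 11 genes on a basophil list, 9 were tested. In BM Gr-1hi 9 of 9 were higher than in BM Gr-1lo, against 24.2% of all genes. In SP Gr-1hi 8 of 9 were higher than in SP Gr-1lo, against 22.3% of all genes. The median log2 FCs were 3.26 and 2.07 against -0.17 and -0.09 over all genes. Prss34, which encodes mast cell protease 11, a basophil enzyme despite its name, had 21.4 and 16.1 CPM in BM Gr-1hi, 7.35 and 5.42 CPM in SP Gr-1hi, 1.78 and 2.42 CPM in BM Gr-1lo and 1.82 and 1.27 CPM in SP Gr-1lo. It was higher in Gr-1hi by 3.15 in marrow and 2.07 in spleen (edgeR adjusted p = 7.21e-06 and 0.000139) and lower in SP Gr-1hi than in BM Gr-1hi, at -1.55 (SE 0.25, edgeR adjusted p = 0.00265). Cpa3, which encodes a carboxypeptidase of basophils and mast cells, was also lower in SP Gr-1hi than in BM Gr-1hi, at -1.52 (SE 0.45, edgeR adjusted p = 0.0317). Between these groups the list had 1 gene higher in spleen, 2 lower and 6 not called, against 14.0% of all genes higher and 1.48% lower. The 1 that was higher was Grm6, which encodes a glutamate receptor, at 2.55 (SE 0.70, edgeR adjusted p = 0.0233), with 2 and 4 counts in the BM Gr-1hi libraries. Cpa3 and Cd200r3, which encodes an activating receptor of basophils, were higher in BM Gr-1hi than in BM Gr-1lo by 3.38 and 3.64 and between the spleen subsets by 1.68 and 1.88 (edgeR adjusted p = 0.000249, 0.000560, 0.0135 and 0.0112). Fcer1a, the IgE-binding chain of the high-affinity IgE receptor, was higher in Gr-1hi by 3.08 in marrow and 2.89 in spleen (edgeR adjusted p = 0.000346 and 0.000988). Hdc, which encodes the enzyme that makes histamine and is also used by neutrophils, had 1263 to 1654 CPM in Gr-1hi and 20.5 to 26.6 CPM in Gr-1lo libraries. Ms4a2, the beta chain of the IgE receptor, was the gene not called between the spleen subsets (log2 FC 0.31, edgeR adjusted p = 0.376), and in marrow it was higher by 1.48 (edgeR adjusted p = 0.00217). In Gr-1lo cells, where Mcpt8 was lower in spleen, 0 of the 9 were called between spleen and marrow by edgeR, and Prss34 had -0.47 (SE 0.27, edgeR adjusted p = 0.385).

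**Figure D4:**
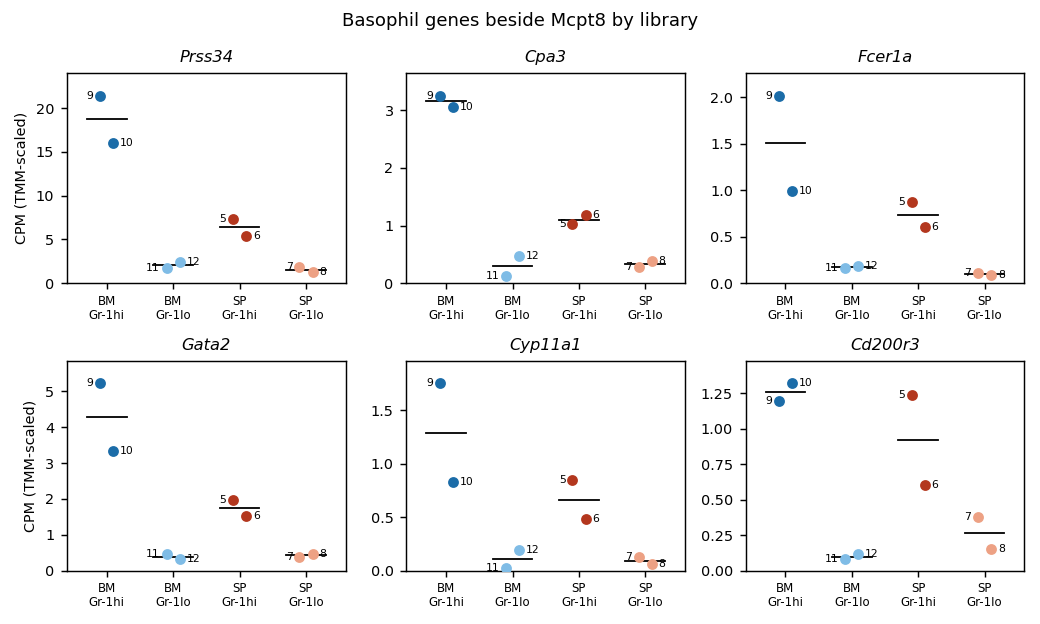
Expression of 6 basophil genes in each library, in TMM-scaled CPM on linear axes that start at 0, with points for libraries and bars for means of the 2 libraries. The Gr-1hi libraries lie above the Gr-1lo libraries for all 6 genes, and Prss34 is highest in libraries 9 and 10, as Mcpt8 is. The genes were picked: Gata2 is from the list of transcription factors and Cyp11a1 was chosen after its values were seen. Among list genes not plotted, Ms4a2 was not called between the spleen subsets and Grm6 was higher in SP Gr-1hi than in BM Gr-1hi.

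Genes that separate mast cells from basophils were almost absent. Cma1, Mcpt1, Mcpt2, Mcpt4, Tpsb2 and Tpsab1, which encode proteases of mast cells, had between 0 and 6 counts in any library and none was tested. Mcpt4 had its 6 counts in library 6 and 0 in both BM Gr-1hi libraries, where Mcpt8 had 322 and 189 counts. Kit, the stem cell factor receptor, which marks mast cells and progenitors alike, had 12.3 to 62.9 CPM and was higher in SP Gr-1hi than in SP Gr-1lo by 1.72 (edgeR adjusted p = 0.00469). Of the 8 granule proteases on a list of those related to Mcpt8, 2 were tested, Ctsg and Gzmb. Ctsg, a protease of neutrophil precursors and monocytes, was lower in Gr-1hi by a log2 FC of -5.92 in marrow and -6.61 in spleen (edgeR adjusted p = 1.81e-06 and 3.42e-06), opposite to Mcpt8, which lies on the same chromosome. Gzmb, a protease of cytotoxic lymphocytes, was not called between the subsets and was higher in spleen by 3.02 in Gr-1hi and 3.40 in Gr-1lo cells (edgeR adjusted p = 0.00150 and 0.00251).

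Transcription factors of these lineages did not move as a set. Of 10 on the list, 9 were tested. Of these, 4 were higher and 3 lower in BM Gr-1hi than in BM Gr-1lo, against 24.2% and 33.1% of all genes. Spi1, which encodes the myeloid factor PU.1, had 739 to 845 CPM in Gr-1hi and 253 to 334 CPM in Gr-1lo libraries, and was higher in Gr-1hi by 1.52 in marrow and 1.35 in spleen (edgeR adjusted p = 1.55e-06 and 5.16e-06). Trib1, which encodes a pseudokinase that controls C/EBPα, was higher in Gr-1hi by 4.20 and 2.69 (edgeR adjusted p = 0.00645 and 0.0280). Irf8, which encodes a factor of monocytes and dendritic cells, was lower by -5.16 and -2.14 (edgeR adjusted p = 5.85e-06 and 0.000420). Xbp1, which encodes a factor of the secretory pathway that eosinophil precursors need, was lower in BM Gr-1hi than in BM Gr-1lo by -1.32 (edgeR adjusted p = 9.53e-06) and had -0.21 between the spleen subsets (0.129). Between SP Gr-1hi and BM Gr-1hi, 3 factors were higher in spleen and 1 lower, against 14.0% and 1.48% of all genes. Irf8 at 2.63 and Xbp1 at 1.30 were among the higher (edgeR adjusted p = 0.00137 and 0.000239). Gata2, which basophils and mast cells require, had 5.23 and 3.34 CPM in BM Gr-1hi, 1.96 and 1.53 CPM in SP Gr-1hi and 0.321 to 0.475 CPM in the Gr-1lo libraries, the order of the groups for Mcpt8 among Gr-1hi libraries. It was lower in SP Gr-1hi than in BM Gr-1hi, at -1.30 (SE 0.31, edgeR adjusted p = 0.0144). Gata1, which eosinophils require, was not tested and had 0 to 11 counts, the highest being 11 in library 9, which was also the highest for Prg2, Epx, Ear1 and Ear6. Cebpe, needed for granule genes of eosinophils and neutrophils, was higher in BM Gr-1hi than in BM Gr-1lo by 2.18 (SE 0.25, edgeR adjusted p = 7.06e-05). Zfpm1, which encodes the GATA partner FOG-1 that restrains the eosinophil fate, was higher in SP Gr-1hi than in BM Gr-1hi by 2.21 (SE 0.28, edgeR adjusted p = 0.000934).

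Alox15, which encodes a lipoxygenase of eosinophils and some macrophages, was higher in library 9 than 10 and in library 11 than 12, as the granule genes were. It had 9.76 and 3.43 CPM in libraries 9 and 10, 1.04 and 0.302 CPM in libraries 11 and 12, 1.86 and 1.43 CPM in SP Gr-1lo and 1.08 and 1.53 CPM in SP Gr-1hi. Unlike for Prg2, Epx, Ear1 and Ear6, both BM Gr-1hi libraries lay above SP Gr-1lo, and SP Gr-1lo overlapped with SP Gr-1hi. Alox15 was higher in BM Gr-1hi than in BM Gr-1lo by a log2 FC of 3.30 (SE 0.64, edgeR adjusted p = 0.00157) and lower in SP Gr-1hi than in BM Gr-1hi by -2.34 (SE 0.61, edgeR adjusted p = 0.0212), the directions that Ear1 had in both. Alox5, which encodes the lipoxygenase that starts leukotriene synthesis and is abundant in neutrophils, was the other gene tested of 3 lipid mediator enzymes. It had 460 to 899 CPM in Gr-1hi and 21.8 to 42.7 CPM in Gr-1lo libraries, and was higher in Gr-1hi by 5.30 in marrow and 3.71 in spleen (edgeR adjusted p = 8.23e-08 and 3.51e-07).

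Levels of different genes can be compared only per length of exon. Per kilobase of exon, Ear2 had 25.4 CPM in SP Gr-1hi, 37.1 in SP Gr-1lo, 45.4 in BM Gr-1hi and 28.7 in BM Gr-1lo, the highest of the 9 members in every group. Prg2 had 13.6 CPM per kilobase in BM Gr-1hi and 7.74 in SP Gr-1lo, above Siglecf at 4.74 and 1.59, while in SP Gr-1hi Siglecf at 10.9 was above Prg2 at 3.48. Mcpt8 had 9.94 in BM Gr-1hi and 1.41 in SP Gr-1lo. Il5ra was the lowest in SP Gr-1lo and both marrow groups, at 0.0759 in SP Gr-1lo, 0.329 in BM Gr-1hi and 0.0139 in BM Gr-1lo, and in SP Gr-1hi Epx was the lowest at 0.0978. The order of the members per length thus changed between groups, with the receptor Siglecf second to Ear2 in SP Gr-1hi and Prg2 second to Ear2 in BM Gr-1hi and SP Gr-1lo.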

How the data were processed

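RNA-seq of sorted CD11b+Gr-1hi and CD11b+Gr-1lo cells from spleen and bone marrow of sanroque mice was analysed, with 2 libraries in each of 4 groups taken from the deposited labels. Libraries were stranded, made from polyadenylated RNA and sequenced as pairs of 101 bases. The authors checked reads with FastQC, trimmed them with Sickle, aligned them to GRCm38 with STAR and deposited raw counts per gene from featureCounts with a GENCODE annotation, as whole numbers without normalization. Reads shared by near-identical genes can be lost or divided in such counts.

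Here counts were filtered with filterByExpr (17650 of 54188 genes kept, 34018 with a count), scaled by TMM and fitted in 1 robust quasi-likelihood model with edgeR 4.0.16 (R 4.3.3), with a term per group and 4 residual degrees of freedom. Adjustment was by Benjamini-Hochberg over all genes tested. SE is the size of the log2 FC divided by the square root of F. Depth was 33453580 to 68316154 counts, and 3 counts, the limit that a count of 0 allows, correspond to 0.0348 to 0.124 CPM by counting error only. The fit was tested on simulated data. Alternatives were RLE and upper-quartile scaling, DESeq2 1.42.0, no filter, the 4 libraries compared, leaving out each library, leaving out libraries 5 and 7, quantile-normalized log2(CPM + 0.5) with limma 3.58.1, summed Ear genes, and a stricter threshold. Exon lengths and positions came from GENCODE M21 on the same build, which matched 53947 of the 54188 identifiers. Likeness was the Pearson r of log2 CPM with a prior count of 2.

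The text names all 9 members, genes of each list called in the comparison described (up to 5 by mean CPM), list genes at 0 that define a cell type, and the 3 genes most like each member. Lists of other cell types are given by counts and sums, except the splenic macrophage genes, all of which are named. Gata1, the ligands Il5, Il3, Il33 and Ccl11, and Cyp11a1 among the genes plotted were chosen after their values were seen. The members and lists were chosen with earlier results of these data known.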

Additional observations from a re-analysis of the deposited data

Results flagged for a closer look

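The difference between Gr-1hi and Gr-1lo cells was unlike in the 2 tissues for 3 members, by a test of the interaction itself (edgeR's quasi-likelihood test, 2 libraries a group). For Siglecf the interaction was 1.62 (SE 0.28, adjusted p = 0.00845), and the log2 FC between the subsets was 2.77 in spleen and 1.15 in marrow. For Prg2 it was -3.62 (SE 0.93, adjusted p = 0.0443), with 2.46 in marrow and -1.16 in spleen. For Ear1 it was -3.88 (SE 1.05, adjusted p = 0.0448), with 2.44 in marrow and -1.45 in spleen. The spleen values of Prg2 and Ear1 were not called. The call of Siglecf was kept in all 15 alternatives, whereas that of Prg2 was lost in 9 of 15 and that of Ear1 in 8 of 14. Without libraries 5 and 7, the adjusted p of the interaction was 0.370 for Prg2 and 0.372 for Ear1.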

How the results depend on the processing

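The study calls the marrow cells autologous, but the labels do not tie libraries to mice and the groups share no replicate number. No paired analysis was therefore run. Over 696 recomputed log2 FCs of members, 590 kept their direction and side of the threshold, 51 lost the call, 48 gained it and 7 changed sign. The calls of Siglecf, Ccr3, Il5ra and Mcpt8 between Gr-1hi and Gr-1lo were kept in all 16 alternatives in both tissues. The 7 changes of sign were in interactions that were never called: Mcpt8 had 0.12 in all libraries, -0.28 to 0.43 when each library was left out (below 0 for library 5 at -0.13, library 8 at -0.19 and library 10) and -0.22 with quantile normalization, Ccr3 had -0.19, then 0.47 without library 12 and 0.54 with quantile normalization, and Il5ra had -1.33, then 0.068 with quantile normalization.

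Between SP Gr-1lo and BM Gr-1lo 1 member was called in the model of all libraries, 0 with upper-quartile scaling or quantile normalization, 4 without a filter, 2 in a fit of the 4 libraries compared, 3 with DESeq2, and 0 to 2 without each library in turn. Between SP Gr-1hi and BM Gr-1hi 4 were called, 7 with DESeq2, 1 without libraries 5 and 7, and 2 to 6 without each library. Between the marrow subsets 7 were called, 4 without libraries 5 and 7, 2 at the stricter threshold, and 4 to 8 without each library. Between the spleen subsets 4 were called, 8 in a fit of the 4 libraries, where Prg2, Epx, Ear1 and Ear6 were called lower in Gr-1hi, 2 at the stricter threshold, and 4 to 5 without each library. For the interaction 3 were called, 6 with DESeq2, 1 without libraries 5 and 7, and 1 to 5 without each library. Of all genes, 4.06% were called between SP Gr-1lo and BM Gr-1lo with all libraries. The share was 4.07% with upper-quartile scaling, 2.74% with quantile normalization, 3.17% without a filter, 4.83% in the 4 libraries and 4.52% with DESeq2. It was 15.5% between SP Gr-1hi and BM Gr-1hi (13.2% with DESeq2) and 57.3% between the marrow subsets. It was 49.6% between the spleen subsets (50.2% in the 4 libraries) and 9.74% for the interaction (11.9% with DESeq2). Without libraries 5 and 7 the share of all genes fell in every comparison, only slightly between the marrow subsets. When each library was left out, it fell between the subsets of both tissues and moved either way in the other comparisons. Member counts from these fits therefore do not by themselves show a change particular to the members. Where fewer libraries were used the estimate of the spread has fewer of them behind it, and a lone library is assumed to vary like the other groups. Beyond this, the cause was not tested.

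Over all genes, the calls between SP Gr-1lo and BM Gr-1lo numbered 716, which became 389, 433 and 396 when library 8, 11 or 12 was left out, in that order, and 1077 with no filter. Those between SP Gr-1hi and BM Gr-1hi numbered 2727, 1715 without library 5 and 1617 without libraries 5 and 7. With quantile normalization 1242 were higher and 663 lower in that comparison, against 2465 and 262. Interactions numbered 1719 and fell to between 819 and 1032 without library 7, 8, 9 or 12 or libraries 5 and 7, and the negative ones numbered 353, or 162 to 914 without each library. RLE scaling moved the median log2 FC of all genes between the subsets from -0.17 to -0.03 in marrow and from -0.09 to 0.04 in spleen. CPM by total count moved 16 of 36 group means by over 1 SD. Values under about 1 CPM rest on few counts.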
